A study of Mus musculus with 24 samples.

Results

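The difference between Ago2 knockout (KO) and wild-type (WT) mouse cells was averaged over days 1 to 4 of a differentiation course towards extraembryonic endoderm (XEN). It rests on the 8 KO and the 8 WT libraries of those days, 16 of the 24 samples of the series, with 2 libraries per day and genotype, and on all 17694 genes that passed the filter on low counts. All samples are of mouse embryonic stem cells on a 129/Ola background; the WT libraries of the course are labelled E14, the name of an established line, and the KO libraries AGO2KO. For the course they grew on gelatin in RPMI medium with 15% FBS, activin A at 10 ng/mL and all-trans retinoic acid at 0.1 µM; the whole protocol takes 5 days. The labels do not say which KO clone, or how many, gave the day 1 to 4 libraries, nor that the 2 libraries of a day were grown as separate cultures. The p-values rest on the spread between libraries and on any change of the genotype difference from day to day. The spread between libraries may therefore be technical. A further 2 KO and 2 WT libraries, labelled diff_XEN, were used as a comparison fitted apart. By their column names the diff_XEN KO libraries are of clone C4 and clone 5-3.

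AGO2 is one of the Argonaute proteins, which carry microRNAs to partly matching sites in messenger RNAs and lower their stability and translation; AGO2 is the one that can also cleave a fully matching target. Primitive endoderm is the first endoderm of the mouse embryo. It is specified by GATA6, GATA4, SOX17 and SOX7, secretes a laminin and collagen IV basement membrane, and gives rise to parietal endoderm and to visceral endoderm, an absorptive epithelium that takes up maternal nutrients through the cubilin, amnionless and DAB2 receptor complex. XEN cells are its counterpart in culture.

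A gene was called at an adjusted p below 0.05 in edgeR's quasi-likelihood test with Benjamini-Hochberg adjustment, fitted to all genes with day and genotype as terms. Log2 fold changes are KO over WT, with their standard error (SE). A called gene is described as holding through the course when, on each of the 4 days, both KO libraries lay beyond both WT libraries on the side of the call. Levels are CPM, read counts scaled to the TMM-adjusted library size. Total counts per library ran from 10601574 to 27147835.

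One library stood apart. In WT day 3 replicate 2, set against the other WT libraries, the median gene of chromosome 1 was higher by 0.53 on the log2 scale and the median gene of chromosome 15 lay at -0.54. The other 15 libraries ran from -0.23 to 0.13 for chromosome 1 and from -0.31 to 0.02 for chromosome 15. The Y-linked gene Ddx3y stood at 10.1 CPM in it, against 60.3 to 120 CPM in the 8 KO libraries and 45.3 to 71.7 CPM in the other 7 WT libraries. Its correlation across genes with WT day 3 replicate 1 was 0.969, and the pairs of the other 7 groups reached 0.980 to 0.992. DNA copy number was not measured. The main counts and those of some lists are also given below without this library. Other list counts also moved by small numbers without it and are not all given. The targeted gene Ago2, also on chromosome 15, was lower in KO on every day, at 33.8 to 148 CPM (median 81.0) against 186 to 581 CPM (median 319) in WT. Its log2 fold change over the 4 days was -2.09 ± 0.24 (adjusted p = 4.25e-05). Ago2 overlaps Chrac1 on the opposite strand. The libraries are labelled as made with a reverse-stranded protocol, and the strand setting of the counting is not given in the sources used here, so reads of genes that overlap on opposite strands may be mixed. Of the genes named below, this also touches Adora1 (Mybph), Ina (Nt5c2), Tagln (Pcsk7) and Gli1 (Arhgap9).

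Over the 4 days genes of the extraembryonic endoderm were lower in KO, and a more mixed group, led by the imprinted Plagl1 and H19, was higher. Of 17694 genes tested, 1279 (7.23%) were lower and 1017 (5.75%) higher in KO, together 2296 (13.0%). Through all 4 days, 515 of the lower and 386 of the higher genes held. The falls were larger. Among the genes that held, the median log2 fold change was -0.99 for the lower and 0.55 for the higher, and the fold change passed 2-fold in 527 of all lower and 188 of all higher genes. Regardless of the test, KO lay below WT on every day without overlap in 540 genes (3.05%) and above it in 438 (2.48%). The count of calls moved with the days used: it was 3136 without day 1, 902 without day 2, 1608 without day 3 and 1132 without day 4. Each of these fits also has fewer libraries. Without WT day 3 replicate 2 it was 2360, with 1229 lower and 1131 higher genes, and 486 of the 515 lower and 383 of the 386 higher genes that held were called there again.

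The lower genes that held had a median of 4.30 CPM in KO and 11.5 CPM in WT, while the higher ones had 47.4 CPM in KO and 32.2 CPM in WT. Their median log2 fold changes by day were -0.75, -0.80, -1.03 and -1.29 on days 1 to 4 for the lower genes, and 0.51, 0.50, 0.60 and 0.56 for the higher ones. A test of whether the genotype difference itself changed with day (3 degrees of freedom, edgeR's quasi-likelihood test with Benjamini-Hochberg adjustment) called 410 genes (2.32%). Of these, 137 were among the 2296 genes called over the course and 54 among the 901 that held. The count of the by-day test was unstable. It fell to 119 without WT day 1 replicate 2 and reached 2320 without WT day 3 replicate 1.

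Of the gene lists, that of primitive endoderm and XEN genes was the most one-sided. The lists were chosen with earlier results of these data known, and this one holds Cubn, Tfec and Aqp8, which are among the largest falls. Its rank among the lists may thus come in part from that choice. All 24 listed genes were tested, of which 20 were lower and 0 higher, and 16 of the falls held on every day. Over all genes tested 7.23% were lower and 5.75% higher, and list counts here and below stand against those shares. Their median log2 fold change was -1.76, against 0.0012 for all genes tested. By day the median was -2.09, -1.59, -1.87 and -2.46 on days 1 to 4. Without WT day 3 replicate 2 the count was again 20 lower and 0 higher. In bulk libraries, fewer endoderm cells and less RNA per endoderm cell cannot be told apart.

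Among the transcription factors that specify this lineage, Sox7 differed most. It ran from 0.271 to 4.94 CPM (median 3.17) in KO and from 3.16 to 67.1 CPM (median 27.5) in WT. On each day the 2 KO libraries lay below both WT libraries, and the KO libraries of days 3 and 4, at 3.38 to 4.94 CPM, were near the WT libraries of day 1, at 3.16 and 3.58 CPM. Its log2 fold change was -3.17 ± 0.20 (adjusted p = 1.11e-07). Gata4 ran from 2.86 to 25.5 CPM (median 9.34) in KO and from 8.41 to 210 CPM (median 51.8) in WT. The groups did not overlap on any day, and the log2 fold change was -1.42 at day 1 and -2.98 at day 4. Over the course it was -2.22 ± 0.21 (adjusted p = 7.26e-06). Gata6 went the other way with time, with log2 fold changes of -2.66, -1.93, -1.15 and -0.92 on days 1 to 4, although the by-day test did not call it (adjusted p = 0.203). Its KO libraries held 1.57 to 59.5 CPM (median 9.61), against 10.9 to 104 CPM (median 36.0) in WT, and both KO libraries were below both WT libraries on every day (-1.60 ± 0.26, adjusted p = 8.36e-04). Sox17, a further endoderm factor (-1.74 ± 0.23), was also lower on every day.

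**Figure D1:**
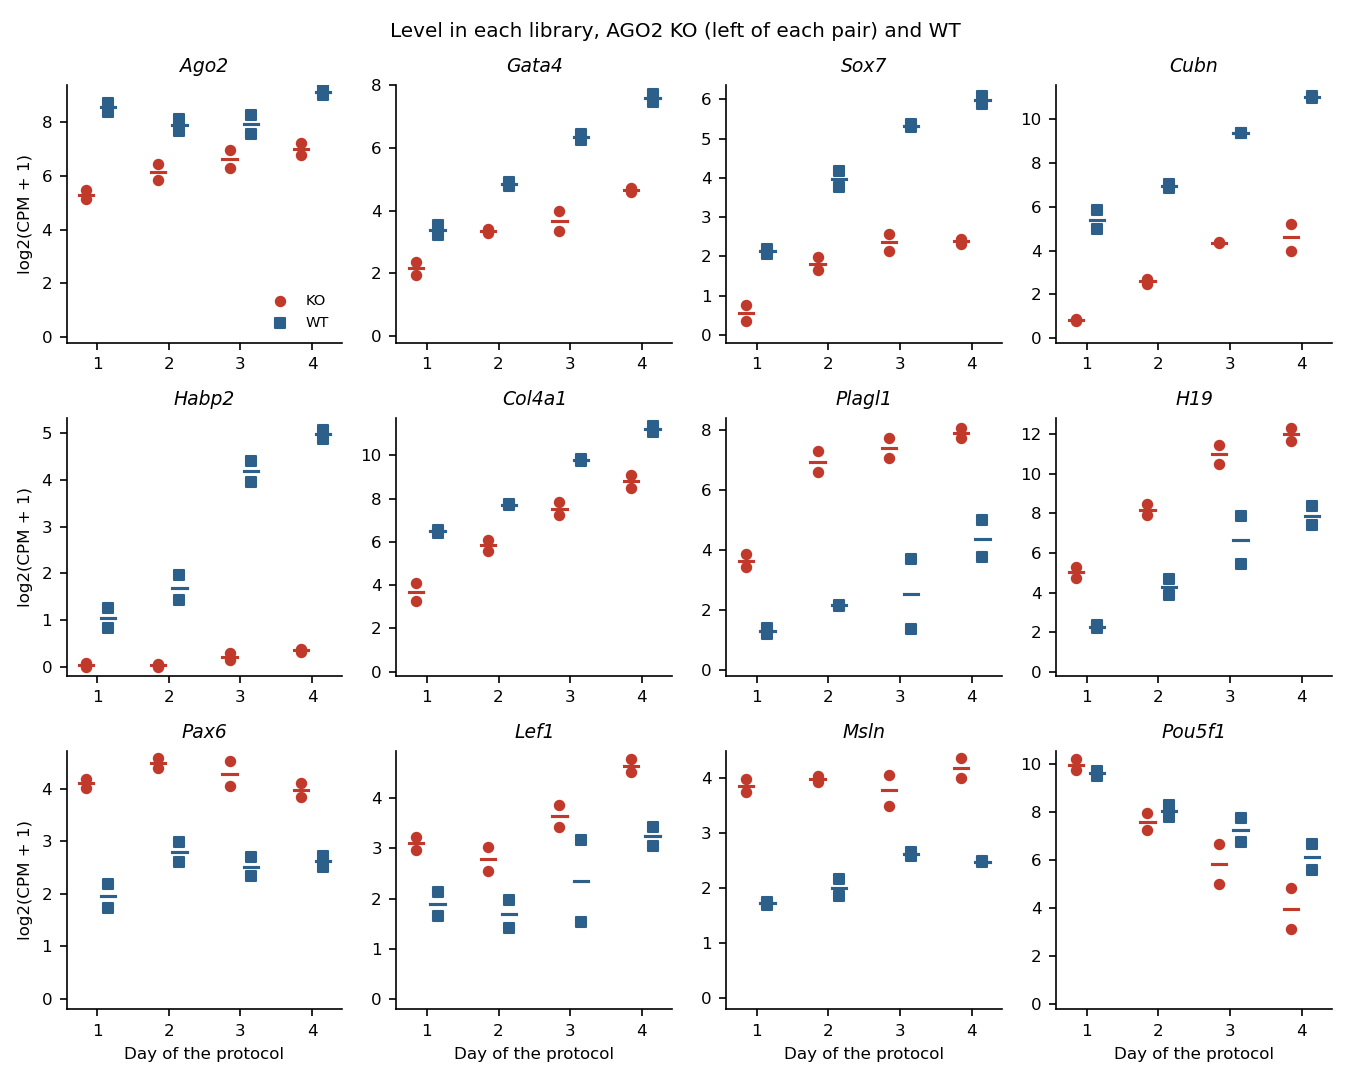
Levels of 12 genes in each library, as log2(CPM + 1), by day of the course, with KO libraries to the left of WT libraries and a bar at the mean of the 2 libraries. Ago2, Gata4, Sox7, Cubn, Habp2 and Col4a1 lie lower in KO on all 4 days, Plagl1, H19, Pax6, Lef1 and Msln lie higher, and Pou5f1 falls with day in both genotypes, with the KO libraries above WT at day 1 and below it at days 3 and 4.

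Cubn was among the largest falls. The gene, which encodes the uptake receptor cubilin, had KO levels of 0.735 and 0.829 CPM on day 1, rising to 4.57 and 5.57 on day 2, then 19.1 and 19.97 on day 3 and 15.0 and 36.1 on day 4. The WT libraries had 30.3 and 56.6, 130 and 115, 666 and 660, and 2011 and 2138 CPM on the same days. The KO libraries of days 3 and 4 thus did not reach the WT libraries of day 2. The log2 fold change was -5.43 ± 0.27 (adjusted p = 8.40e-09). Amn, which encodes amnionless, the partner that brings cubilin to the membrane, differed by -3.83 ± 0.50 on the log2 scale, and Dab2, their endocytic adaptor, by -1.77 ± 0.19. All 3 genes of the complex held on every day.

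Habp2, which encodes a secreted serine protease that binds hyaluronan, had the largest fall of the genes that held. KO libraries carried 0 to 0.300 CPM (median 0.0715), 17 reads in all, and WT libraries 0.761 to 32.8 CPM (median 8.69), 1357 reads in all. Even the highest KO library lay below the lowest WT library. The log2 fold change was -6.53 ± 0.29 (adjusted p = 2.81e-09). Habp2 overlaps Nrap on the opposite strand. Tfec, a transcription factor of the MITF and TFE family, showed the same separation, with 0 to 0.557 CPM (median 0.282) in KO against 1.24 to 30.7 CPM (median 8.69) in WT (-5.33 ± 0.32, adjusted p = 1.11e-07). The water channel gene Aqp8 followed, with 0 to 1.05 CPM (median 0.168) in KO, against 0.160 to 37.4 CPM (median 7.01) in WT. Its groups were apart within each day but not across the course, since the WT libraries of day 1 stood at 0.160 and 0.294 CPM (-5.25 ± 0.33, adjusted p = 1.11e-07).

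The other large falls that held were spread over several functions. Pga5, a pepsinogen gene, differed by -4.88 ± 0.40 on the log2 scale, and Klb, the co-receptor β-Klotho for endocrine FGFs, by -4.70 ± 0.32. The transcription factor gene Tcf23 (-4.32 ± 0.53), the mucin gene Muc13 (-4.02 ± 0.50), Srgn, which encodes the proteoglycan serglycin (-4.01 ± 0.30), the adenosine receptor gene Adora1 (-3.76 ± 0.27) and the lysosomal protease gene Ctsh (-3.76 ± 0.30) completed the 12 largest. All of them were called without each of the 16 libraries in turn. The fall of Klb, Tcf23, Srgn and Amn also changed with day and was larger on days 3 and 4 than on days 1 and 2.

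Basement membrane genes split by chain. The laminin α1 gene Lama1 ran from 10.3 to 153 CPM (median 46.9) in KO and from 51.2 to 1885 CPM (median 416) in WT (-2.88 ± 0.23, adjusted p = 1.35e-06). Its groups did not overlap on any day. The collagen IV genes Col4a1 (-2.33 ± 0.16) and Col4a2 (-2.00 ± 0.15) were lower on every day; they are neighbours on opposite strands. Lamc1 (-0.59 ± 0.13) and Nid2 (-0.48 ± 0.10) moved less. Col18a1, the collagen XVIII chain, was higher and held (0.73 ± 0.10). Of 16 basement membrane genes, 6 were lower and 1 higher, with a median of -0.01, with 3 lower without day 4 and 2 higher without WT day 1 replicate 2. Of 18 parietal endoderm genes, 9 were lower and 2 higher (median -0.30); without day 4 there were 4 lower, and 1 was higher without any of 10 of the 16 libraries. Of 23 visceral endoderm genes, 8 were lower and 1 higher (median -0.89). The 8 lower genes of that list became 8 to 10 without 1 library, 12 with DESeq2's Wald test or with the group means averaged, and 16 without the filter on low counts. The 1 higher became 2 without KO day 4 replicate 1. In the visceral list Ttr, the thyroid hormone carrier (-3.37 ± 0.48), Afp, the fetal serum protein (-2.92 ± 0.53) and Apoa4, an apolipoprotein (-4.82 ± 0.55), fell. The 1 gene higher there was Cdx2, a trophoblast and hindgut factor (1.81 ± 0.30), in which the log2 fold change was 0.09 at day 4. Of 20 genes of absorptive epithelium, 12 were lower and 0 higher (median -0.95). Besides the receptor complex these included Clic6, an intracellular chloride channel protein (-2.80 ± 0.33), the zinc transporter gene Slc39a4 (-1.08 ± 0.20) and Cdhr2, a brush border cadherin (-1.56 ± 0.41). Lists share members, Cubn, Lama1 and Col4a1 among them, so their counts are not separate evidence.

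**Figure D2:**
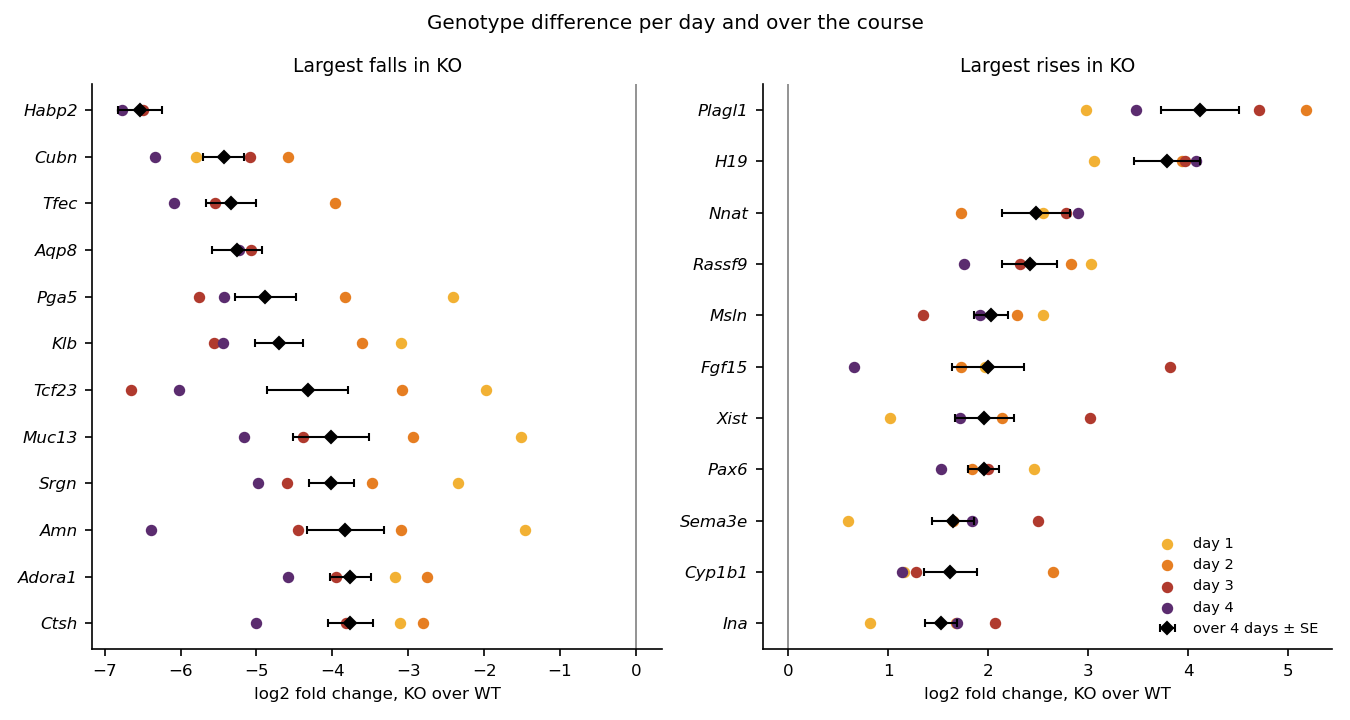
Log2 fold changes of KO over WT on each day (dots) and over the 4 days (diamonds, bars ± SE) for the 12 largest falls that held (left) and 11 of the 12 largest rises that held (right). Each dot lies on the side of its diamond; points of days on which the KO libraries had 3 reads or fewer, for Habp2, Aqp8 and Tfec, are left out.

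Few pluripotency genes were called. Of 14 general pluripotency genes, 0 were called by edgeR's quasi-likelihood test and 0 by DESeq2's Wald test, with 2 lower and 1 higher at an unadjusted p below 0.05 (median -0.11). That median averages over days that differ: by day it was 0.35, 0.03, -0.09 and -0.96 on days 1 to 4. In diff_XEN 10 of the 14 were lower and 0 higher, where 24.9% of all genes tested were lower. Pou5f1, which encodes OCT4, ran from 7.81 to 1182 CPM (median 127) in KO and from 47.0 to 849 CPM (median 221) in WT, and differed by -0.83 ± 0.36 (adjusted p = 0.149). Nanog (-0.66 ± 0.34, adjusted p = 0.228), Sox2 (0.36 ± 0.26, adjusted p = 0.403) and Esrrb (-0.19 ± 0.30, adjusted p = 0.735) did not pass either. Without the filter on low counts Pou5f1 (adjusted p = 2.24e-12), Nanog (adjusted p = 4.92e-08) and Sox2 (adjusted p = 0.0129) were called with the same fold changes, and without day 4 Esrrb was at 0.038. In all, 5 of the 14 were lower and 2 higher without that filter. Of 18 naive pluripotency genes 3 were lower and 0 higher (median -0.51). Their median by day was 0.26, -0.41, -0.73 and -0.90, and in diff_XEN 12 of 16 tested were lower and 1 higher. DESeq2's Wald test gave 5 lower and 1 higher, and the fit without the filter 10 lower and 2 higher. The naive median was -0.20 without WT day 3 replicate 2 and -0.29 without KO day 3 replicate 2. Tbx3, a T-box factor expressed in naive cells and in primitive endoderm (-1.02 ± 0.16), and Klf5 (-0.61 ± 0.14) held. Klf4 was the third (-0.94 ± 0.23), and its call was lost without day 2 (adjusted p = 0.0944) or day 4 (adjusted p = 0.0546).

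Among the rises, Plagl1, a zinc finger gene expressed from the paternal allele, was the largest that held. KO libraries carried 13.6 and 9.76 CPM on day 1, then 95.6 and 156 on day 2, 133 and 211 on day 3, and 267 and 211 on day 4. WT libraries carried 1.64 and 1.30, 3.42 and 3.52, 12.1 and 1.57, and 30.7 and 12.6 CPM on the same days. The KO libraries of days 2 to 4 all lay above the highest WT library of the course. The log2 fold change was 4.12 ± 0.39 (adjusted p = 6.27e-06). H19, an imprinted long RNA expressed from the maternal allele and host of miR-675, ran from 26.1 to 5112 CPM (median 899) in KO and from 3.58 to 328 CPM (median 33.3) in WT. It rose with day in both genotypes and was higher in KO on each day, by 3.05, 3.93, 3.97 and 4.08 on the log2 scale on days 1 to 4 (3.79 ± 0.33 over the course, adjusted p = 2.63e-06). Nnat, a further paternally expressed gene, ran from 14.4 to 118 CPM (median 39.1) in KO and from 1.23 to 16.9 CPM (median 9.18) in WT (2.48 ± 0.34, adjusted p = 2.08e-04).

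These 3 genes belong to the imprinted list, of which 14 of 30 tested members were higher and 4 lower, with 10 rises and 1 fall that held and a median of 0.53. Without WT day 3 replicate 2 the count was 15 higher and 3 lower, and without KO day 4 replicate 2 there were 2 lower. Maternally expressed RNAs of the Dlk1-Dio3 region rose together: Meg3 by 0.82 ± 0.13, Rian by 0.74 ± 0.11 and Mirg by 0.72 ± 0.17. So did the paternally expressed Snrpn (0.73 ± 0.08), Mest (0.75 ± 0.16), Sgce (0.88 ± 0.16), Peg10 (0.88 ± 0.23), Peg3 (0.85 ± 0.22), Impact (0.60 ± 0.12) and Zrsr1 (0.46 ± 0.09). The IGF2 receptor gene Igf2r (-0.62 ± 0.15) and the adaptor gene Grb10 (-0.54 ± 0.12) fell. The rises thus took in genes of either parental allele. Allelic expression was not measured.

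Msln and Pax6 were apart in all libraries, across days as well as within them. Msln, the surface protein mesothelin, ran from 10.3 to 19.4 CPM (median 14.9) in KO and from 2.24 to 5.27 CPM (median 3.99) in WT (2.03 ± 0.17, adjusted p = 1.51e-06). Pax6, an eye and neural transcription factor, ran from 13.3 to 22.8 CPM (median 16.7) in KO and from 2.32 to 6.89 CPM (median 4.86) in WT (1.95 ± 0.15, adjusted p = 1.12e-06). Neither rose or fell steadily with day in KO. Among the other large rises that held were Rassf9 (2.41 ± 0.28), the FGF ligand gene Fgf15 (2.00 ± 0.36), Xist, the RNA that coats the inactive X chromosome (1.96 ± 0.30), the semaphorin gene Sema3e (1.64 ± 0.21), the cytochrome P450 gene Cyp1b1 (1.62 ± 0.26) and the neuronal intermediate filament gene Ina (1.52 ± 0.16). Xist stayed low in absolute terms, at 0.812 to 11.4 CPM (median 4.33) in KO and 0.401 to 3.08 CPM (median 0.845) in WT, and it overlaps Tsix on the opposite strand.

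Markers of other cell types moved with these rises only in part. Of 15 neural genes, 6 were higher and 0 lower (median 0.55), with Pax6 and Rfx4 holding on every day, Prom1 higher by 1.44 ± 0.26 and a summed level of 289 to 906 CPM in KO against 230 to 616 CPM in WT. The neural list holds 19 genes, of which those 15 passed the filter on low counts. Without day 2, 3 of them were higher. Of 12 mesothelium genes, Msln and the Wilms tumour factor gene Wt1 (1.36 ± 0.16) were higher and 0 lower, with a median of -0.11 and a summed level of 113 to 5299 CPM in KO against 130 to 3727 CPM in WT. Mesenchyme genes were divided, with 5 of 20 higher, among them the smooth muscle actin binder Tagln (1.03 ± 0.22), and 4 lower, among them Thy1 (-1.12 ± 0.19). Both counts moved with single libraries: 2 were higher without WT day 2 replicate 1 or KO day 4 replicate 1, 3 without WT day 2 replicate 2, WT day 4 replicate 2 or KO day 3 replicate 2, and 2 were lower without WT day 3 replicate 1, KO day 2 replicate 1 or either KO library of day 3. Of 16 cardiac and lateral mesoderm genes, 0 were called by edgeR's quasi-likelihood test and 0 by DESeq2's Wald test, and 0 lay below an unadjusted p of 0.05. Of 13 trophoblast genes, 2 were higher and 0 lower (median 0.03), and 1 was higher without WT day 4 replicate 2, KO day 2 replicate 2, KO day 3 replicate 2 or KO day 4 replicate 1. Whether a share of other cells moved with the genotype was not tested.

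**Figure D3:**
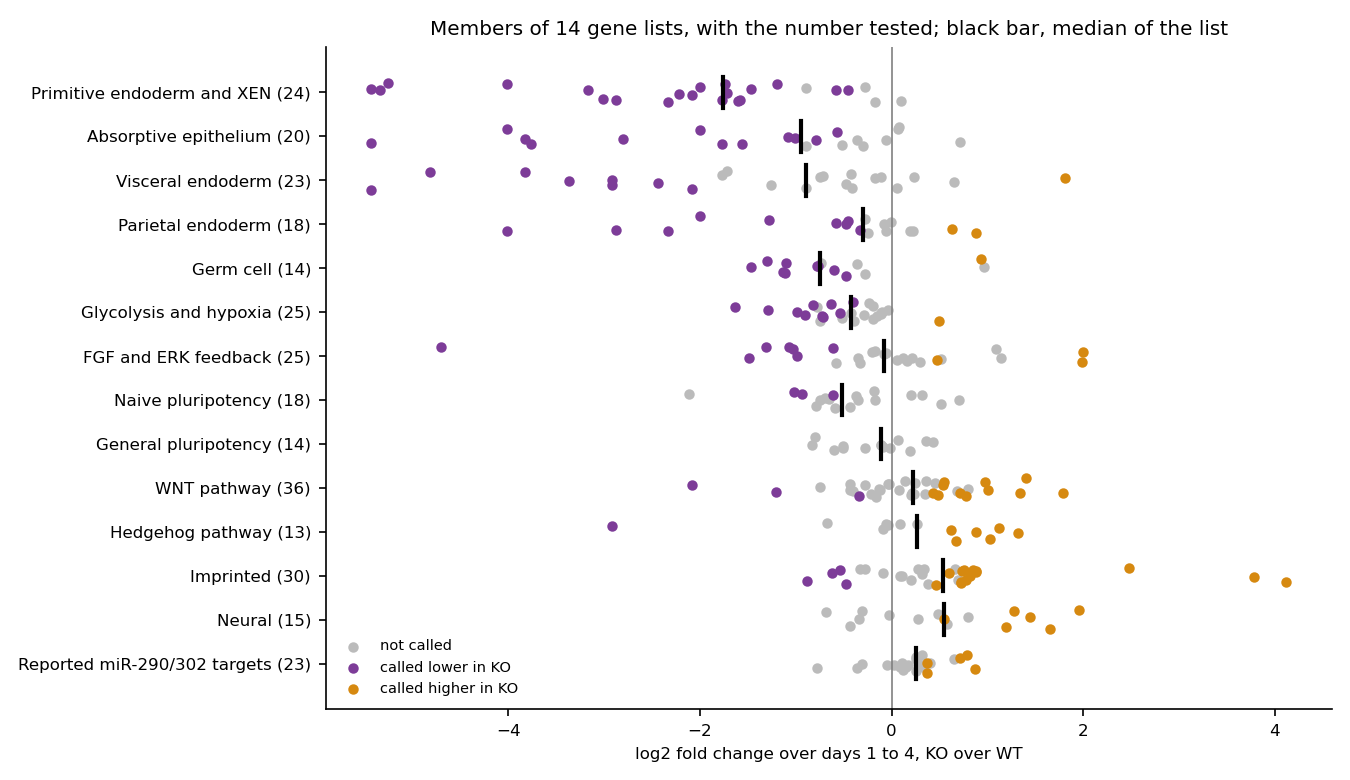
Log2 fold changes of KO over WT over the 4 days for the members of 14 gene lists, with called genes in colour, genes not called in grey and a black bar at the list median. The primitive endoderm and XEN list lies almost wholly below 0 (median -1.76), the general pluripotency list centres near 0 with no called gene, and the imprinted list lies mostly above 0 (median 0.53).

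Of 36 WNT pathway genes tested, 11 were higher and 3 lower (median 0.22). Without WT day 3 replicate 2 there were 9 higher and 2 lower, without day 2 there were 5 higher, and without day 3 or day 4 there were 7. The ligand genes Wnt3 (1.34 ± 0.24) and Wnt6 (0.97 ± 0.20), the receptor gene Fzd2 (1.01 ± 0.13), the nuclear effector gene Lef1 (1.4 ± 0.23) and the target gene Sp5 (1.79 ± 0.29) were higher on every day. The antagonist gene Dkk1 (-2.08 ± 0.17) and the receptor gene Fzd5 (-1.21 ± 0.27) were lower on every day, Dkk1 being also a member of the primitive endoderm list. Lef1 and Fzd2 were among the steadiest rises, with log2 fold changes of 1.24 to 1.5 for Lef1 and 0.81 to 1.20 for Fzd2 over the 4 days. Hedgehog genes showed 6 rises and 1 fall among 13, and 5 rises and 2 falls among 14 without WT day 3 replicate 2; without day 2 there were 2 rises. The ligand gene Ihh, made by visceral endoderm, was lower (-2.91 ± 0.51), while the transcription factor genes Gli1 (1.32 ± 0.23) and Gli2 (0.62 ± 0.10) were higher.

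Of 25 FGF genes tested, 7 were lower and 3 higher (median -0.08), and without day 2 or day 4 there were 4 lower. The receptor genes Fgfr4 (-1.49 ± 0.28) and Fgfr3 (-1.03 ± 0.23), the ERK phosphatase gene Dusp4 (-0.62 ± 0.15) and the ERK-responsive factor gene Etv4 (-1.31 ± 0.24) were lower, beside the co-receptor gene Klb. The ligand genes Fgf15 and Fgf17 (1.99 ± 0.34) were higher; Fgf17 was not apart at day 4, where its log2 fold change was -0.10. Of 20 Nodal and activin genes, 3 were higher and 2 lower, of 22 BMP genes 2 were higher and 0 lower, of 24 retinoic acid genes 4 were higher and 0 lower, and of 24 HOX genes 3 were higher and 0 lower. Their largest change that held was in Msx1, a BMP target (1.05 ± 0.18). These small counts stand beside 5.75% higher and 7.23% lower over all genes tested, and they moved with single libraries. The 3 Nodal and activin rises became 1 without WT day 2 replicate 1 and 5 without KO day 1 replicate 2, and the 2 falls became 1 without WT day 2 replicate 1, KO day 1 replicate 1 or KO day 4 replicate 2. The 4 retinoic acid rises became 1 without KO day 2 replicate 2 and 2 without WT day 4 replicate 2, KO day 3 replicate 2 or either KO library of day 4. All 7 retinoic acid and HOX calls were lost without day 2 and without day 4. Without WT day 2 replicate 1, 5 of the 7 retinoic acid and HOX calls were lost, with adjusted p of 0.0943 for Stra6, 0.0854 for Meis1, 0.0727 for Meis2, 0.0648 for Hoxa7 and 0.0844 for Hoxa9. The calls of the receptor gene Rara (0.31 ± 0.07) and of Hoxb5 (0.74 ± 0.19) were kept there. Both genes lie on chromosome 11, whose median gene was itself higher in KO, at 0.13 over the course. The part of the chromosome in these 2 rises was not tested.

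Of 14 germ cell genes, 9 were lower and 1 higher (median -0.75), and without day 2 there were 5 lower. Dazl, an RNA-binding protein of germ cells, ran from 17.9 to 47.2 CPM (median 36.6) in KO and from 55.4 to 195 CPM (median 91.8) in WT. No KO library reached the lowest WT library (-1.47 ± 0.15, adjusted p = 1.00e-05). Mov10l1, a piRNA helicase (-1.11 ± 0.14), Taf7l, a subunit of the transcription machinery (-1.13 ± 0.13), Stk31 (-0.77 ± 0.13) and the PIWI gene Piwil2 (-0.48 ± 0.09) also held. The 1 gene higher was Prdm1 (0.93 ± 0.24), a repressor that specifies germ cell precursors, and there were 2 higher without WT day 3 replicate 1 or KO day 4 replicate 1. Of 25 glycolysis and hypoxia genes, 10 were lower and 1 higher (median -0.42), with 6 lower without day 3 and 3 without day 4, and 1 of these falls held on every day. That was Ndrg1, a stress-responsive gene (-1.63 ± 0.29), while Bnip3, a mitophagy receptor (-1.28 ± 0.25) and Vegfa (-0.82 ± 0.15) were apart on 3 days. Of 23 cholesterol synthesis genes, 0 were called by edgeR's quasi-likelihood test and 0 by DESeq2's Wald test, with 3 lower at an unadjusted p below 0.05. Msmo1 (-0.37), Sqle (-0.37) and Cyp51 (-0.38) were called lower without WT day 3 replicate 2. Of 20 genes of the integrated stress and unfolded protein responses, 0 were called by edgeR's quasi-likelihood test and 1 by DESeq2's Wald test, with 4 lower and 1 higher at an unadjusted p below 0.05.

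AGO2 acts through microRNAs, so the genes of that machinery and the genes with microRNA sites were examined. Of 26 Argonaute and microRNA genes other than Ago2, 4 were higher and 1 lower; without day 1 there were 10 higher, and without day 2 there was 1. The lower one, Snd1 (-0.26 ± 0.07), a nuclease of the silencing complex, lost its call without WT day 4 replicate 1 (-0.22) or KO day 4 replicate 2 (-0.22). Mov10, an RNA helicase that binds Argonautes, ran from 169 to 200 CPM (median 181) in KO and from 88.3 to 158 CPM (median 120) in WT. All KO libraries lay above all WT libraries (0.63 ± 0.10, adjusted p = 9.75e-04). The mature microRNAs are shown because their seeds, in capitals at bases 2 to 8 (RefSeq, GRCm38.p6), define the sites counted. The seeds of miR-294 and miR-17 overlap by 6 bases, and those families are abundant in embryonic stem cells; miR-9 and miR-208a stand for neural and heart families.
mmu-miR-294-3p: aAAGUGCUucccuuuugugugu
mmu-miR-17-5p: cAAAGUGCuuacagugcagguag
mmu-let-7a-5p: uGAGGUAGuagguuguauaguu
mmu-miR-16-5p: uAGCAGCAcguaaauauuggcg
mmu-miR-9-5p: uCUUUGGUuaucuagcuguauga
mmu-miR-208a-3p: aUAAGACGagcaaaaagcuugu

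The shares of called genes were set out by the number of seed sites. Sites were exact matches to the reverse complement of the 7 seed bases in the longest annotated 3′UTR of 14978 tested genes, of which 6.23% were higher and 7.76% lower in KO. With no, 1 and 2 or more miR-294 sites, 5.73%, 8.59% and 9.13% were higher and 8.16%, 6.25% and 3.91% lower. For miR-17 the shares were 5.63%, 9.50% and 12.5% higher and 8.02%, 6.88% and 2.25% lower. For let-7 they were 6.22%, 5.99% and 8.29% higher, for miR-9 6.04%, 7.91% and 4.67%, and for miR-16 6.03%, 6.54% and 7.76%. For miR-208a 6.22% of genes without a site and 7.04% of the 270 with 1 site were higher. UTR length moves with these classes, with a median of 935 bases without a miR-294 site, 2265 with 1 site and 3833 with 2 or more. Among 3′UTRs of 1000 to 2000 bases, 11.3% of genes with a miR-17 site were higher against 6.49% without, and 10.0% with a miR-294 site against 6.59% without. The share was 10.2% of the 59 genes with a miR-208a site against 7.09% without, a gap about as wide as that of miR-294, and 6.77% against 7.26% for miR-16 and 6.64% against 7.22% for miR-9. Among those of 2000 to 4000 bases the shares were 9.93% against 5.37% for miR-17, 7.06% against 6.22% for miR-294, 8.36% against 5.88% for miR-9, 7.13% against 6.04% for miR-16 and 5.61% against 6.51% for miR-208a. For let-7 the higher shares were 6.16% against 7.26% in the shorter class and 5.89% against 6.59% in the longer. Its lower shares were 7.64% against 8.4% in the shorter class and 10.3% against 6.36% in the longer. The 2 embryonic families share much of their sites, 1146 genes having both, and no test was run on these shares. Of 23 genes reported elsewhere as targets of the miR-294 family, 5 were higher and 0 lower (median 0.26), and of 26 reported let-7 targets 4 were higher and 0 lower (median 0.21). Without 1 library these counts ran from 2, without WT day 4 replicate 2, to 8, without WT day 3 replicate 1, for the miR-294 family, and up to 7, without KO day 1 replicate 2, for let-7. The first was 3 without WT day 2 replicate 1, KO day 2 replicate 2 or KO day 4 replicate 1. Ei24 (0.37 ± 0.07) and, among the let-7 list, the cyclin gene Ccnd1 (1.08 ± 0.13) were higher on every day.

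The promoters of the 3 largest rises and the 3 largest falls that had a RefSeq promoter are shown, each as the 250 bases before the RefSeq start on the gene's own strand (GRCm38.p6), because GATA factors were themselves among the falls. Capitals mark GATA hexamers on either strand. The motif searched was AGATAA with its variant AGATAG, and TGATAA with its variant TGATAG. For Xist, Habp2 and Cubn the RefSeq start is not that of a GENCODE transcript.
Plagl1, chr10:13090582-13090831, plus strand: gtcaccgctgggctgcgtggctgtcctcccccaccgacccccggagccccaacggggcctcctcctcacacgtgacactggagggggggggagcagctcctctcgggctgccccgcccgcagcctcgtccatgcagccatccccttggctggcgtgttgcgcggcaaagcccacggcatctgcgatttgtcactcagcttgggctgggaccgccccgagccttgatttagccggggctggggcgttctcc
Nnat, chr2:157559828-157560077, plus strand: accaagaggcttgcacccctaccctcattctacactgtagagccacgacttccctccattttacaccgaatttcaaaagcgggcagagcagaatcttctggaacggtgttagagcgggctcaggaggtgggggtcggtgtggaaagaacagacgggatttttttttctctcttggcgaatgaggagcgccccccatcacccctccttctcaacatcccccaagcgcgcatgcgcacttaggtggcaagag
Xist, chrX:103483234-103483483, minus strand: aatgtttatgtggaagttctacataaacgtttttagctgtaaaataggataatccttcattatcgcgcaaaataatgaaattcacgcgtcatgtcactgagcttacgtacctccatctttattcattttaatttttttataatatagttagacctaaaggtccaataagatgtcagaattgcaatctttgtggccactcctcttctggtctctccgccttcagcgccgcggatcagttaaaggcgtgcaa
Habp2, chr19:56287662-56287911, plus strand: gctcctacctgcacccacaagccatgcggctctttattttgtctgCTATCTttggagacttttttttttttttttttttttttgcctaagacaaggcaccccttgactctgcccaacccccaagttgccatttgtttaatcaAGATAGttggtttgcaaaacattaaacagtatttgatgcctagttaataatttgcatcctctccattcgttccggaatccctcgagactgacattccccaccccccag
Cubn, chr2:13491877-13492126, minus strand: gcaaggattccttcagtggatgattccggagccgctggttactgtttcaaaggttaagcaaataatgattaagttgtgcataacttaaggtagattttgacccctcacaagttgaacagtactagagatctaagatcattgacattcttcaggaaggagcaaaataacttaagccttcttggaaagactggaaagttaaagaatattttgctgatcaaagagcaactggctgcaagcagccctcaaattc
Tfec, chr6:16898442-16898691, minus strand: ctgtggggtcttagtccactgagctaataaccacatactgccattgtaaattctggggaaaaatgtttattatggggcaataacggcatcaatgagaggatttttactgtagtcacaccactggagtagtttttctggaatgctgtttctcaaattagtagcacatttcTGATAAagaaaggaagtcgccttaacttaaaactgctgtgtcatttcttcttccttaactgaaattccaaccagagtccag

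Habp2 held 2 such hexamers and Tfec 1, while the window of Cubn and those of the 3 rises held 0. Among all 12014 promoters of tested genes, 17.3% held a GATA hexamer. The share was 19.2% of 899 promoters of lower genes and 14.9% of 736 promoters of higher genes. It was 19.1% of 366 promoters of lower genes that held, 22.1% of the 181 of these past a 2-fold fall and 26.3% of the 19 past an 8-fold fall, that is 5 promoters. For the 282 promoters of higher genes that held it was 16.7%. Promoters counted with 2 hexamers made up 2.62% of all, 2.19% for lower genes that held and 3.19% for higher genes that held. Past a 2-fold fall they made up 1.66%, and past an 8-fold fall 1 of the 19. A match is a description of the letters in this window, and binding was not measured.

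Many higher genes lay close together on 1 chromosome. A stretch of chromosome 10 from Cep85l to Zwint, chr10:53273443-72674964 (mm10), 19.4 Mb long, held 107 tested genes, of which 55 were higher and 2 lower in KO. It thus held 5.41% of the 1017 higher genes and 9.07% of the 386 higher genes that held on every day, against 0.605% of all genes tested. The stretch was found by its values, so these shares are a description. Its edges were set by a running median of 9 genes. Just before Cep85l, Ascc3 (0.55), Gopc (0.78) and Nus1 (0.60) were also called higher, and Dcbld1 among them (0.22) was not. It held 81 genes averaging 3 CPM or more, of which 75 lay above 0, with a median of 0.56 (quartiles 0.43 and 0.71), a median fold of 1.47. By day the median was 0.40, 0.47, 0.79 and 0.57. In each of the 8 KO libraries the median of the stretch lay 0.29 to 0.74 above the WT libraries of the day, while the 509 other such genes of chromosome 10 had medians of -0.03 to 0.03. The highest of these values were of day 3, where WT day 3 replicate 2 itself lay 0.32 below WT day 3 replicate 1 in the stretch. Against WT day 3 replicate 1 alone the 2 KO libraries of day 3 were at 0.51 and 0.53, and without WT day 3 replicate 2 the median over the course was 0.53, with 75 of 81 genes above 0.

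The genes of the stretch have unrelated functions. Reep3, which shapes the endoplasmic reticulum, averaged 74.95 CPM in KO and 32.3 CPM in WT (1.06 ± 0.13), and the kinetochore protein gene Zwint 301.6 CPM in KO and 152 CPM in WT (0.97 ± 0.10). The histone variant gene H2afy2 (0.94 ± 0.13), Fam13c (0.93 ± 0.16), Serinc1 (0.91 ± 0.10) and the gap junction gene Gja1 (0.79 ± 0.14) also held. Nodal, the ligand of the activin type receptors, lies in the stretch and was called higher without holding on every day (0.85 ± 0.21, adjusted p = 0.0169), and its call was lost without day 1 (adjusted p = 0.0582) or day 2 (adjusted p = 0.0855). The DNA demethylase gene Tet1 was not called (0.61, adjusted p = 0.0598). The 2 lower genes were the endoderm gene Srgn and the hexokinase-like gene Hkdc1 (-2.52 ± 0.31). Between the 2 diff_XEN KO clones the stretch differed: 57 of 80 genes lay above the WT libraries in clone C4 (median 0.74) and 35 of 80 in clone 5-3 (median -0.16), with 1 library each. DNA copy number was not measured.

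**Figure D4:**
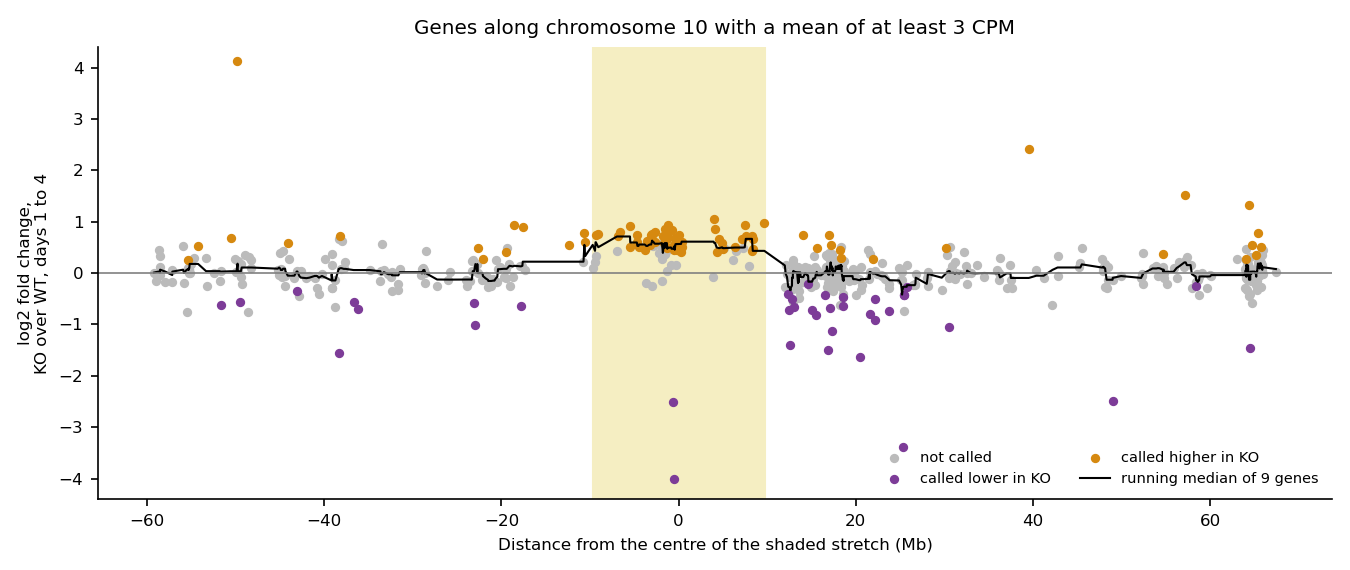
Log2 fold change of KO over WT over the 4 days for genes of chromosome 10 that average 3 CPM or more, against the distance in Mb from the centre of the shaded stretch, with a running median of 9 genes. Inside the stretch 75 of 81 genes lie above 0 (median 0.56). Outside it the running median stays near 0 except beside the left edge, where Ascc3, Gopc and Nus1 were also called higher.

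By whole chromosome, the share of higher genes was 11.3% on chromosome 10, 90 of 797, which holds the stretch, and 11.1% on chromosome 11, 160 of 1438. Over all genes tested the share of higher genes was 5.75% and that of lower genes 7.23%. On chromosome 11 there were 67 lower genes (4.66%), and its median gene was at 0.13 over the course. Chromosome 15 had the highest share of falls among the autosomes, with 93 of 692 genes lower (13.4%) and 18 higher. Without WT day 3 replicate 2, in which chromosome 15 was itself low, 124 of its genes were lower (17.2%) and 18 higher. Against the WT libraries without that one, the median gene of chromosome 15 lay at -0.31 to -0.08 in the 8 KO libraries and at -0.05 to 0.02 in the 7 WT libraries, and that of chromosome 11 at 0.05 to 0.14 in KO and -0.03 to 0.05 in WT. Named genes on chromosome 15 include Ago2, Dab2, Ndrg1 and Mov10l1, with log2 fold changes of -1.11 to -2.09, and Sqle, which was not called. Those on chromosome 11 include Rara, Hoxb5, Wnt3 and Fzd2. Chromosome 1 had 30 higher and 95 lower genes with all libraries, and 52 higher and 77 lower without WT day 3 replicate 2. The part of whole chromosomes in the gene calls was not tested.

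**Figure D5:**
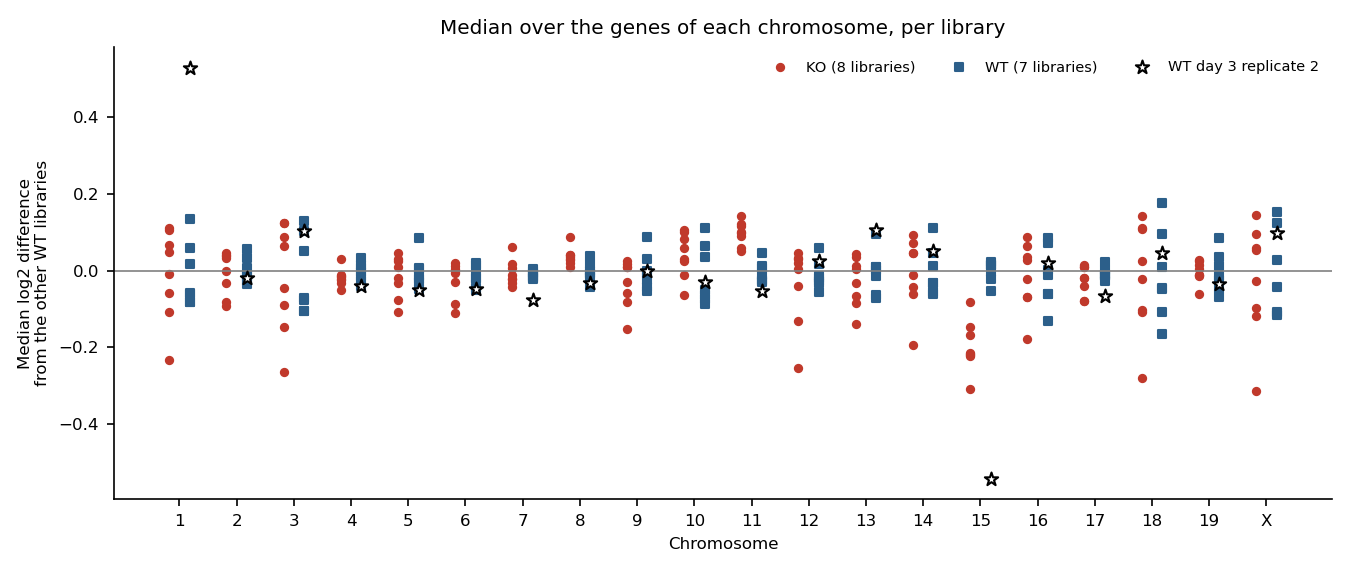
Median log2 difference of the genes of each chromosome in each library, set against the other WT libraries, with the 8 KO libraries left of the 7 WT libraries and a star for WT day 3 replicate 2. The star lies at 0.53 on chromosome 1 and at -0.54 on chromosome 15, beyond the other 15 libraries, and the KO libraries lie at -0.31 to -0.08 on chromosome 15 and at 0.05 to 0.14 on chromosome 11.

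Most of the differences that held through the course were also present in diff_XEN, libraries made apart from the course and not used in its fit. In that comparison 24.9% of 16671 genes were lower and 22.1% higher in KO. Of the 443 lower genes that held and were tested there, 301 (67.9%) were again lower and 11 (2.48%) higher. Of the 362 higher genes that held, 209 (57.7%) were higher and 10 (2.76%) lower. Of all 15331 genes tested in both, 3829 were lower and 3454 higher. The genes called lower over the course make up 16.6% of those lower in diff_XEN, and the genes called higher 14.7% of those higher there.

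In diff_XEN 22 of the 24 primitive endoderm and XEN genes were lower and 1 higher. Cubn differed by -7.43 there, Sox7 by -5.82, Lama1 by -5.97 and Gata4 by -3.24 on the log2 scale, each called. Nnat (7.2), Lef1 (5.03) and Wnt3 (4.18) were among the rises called again. Plagl1 was at 5.52 and H19 at 4.44 there, against 4.12 for Plagl1 and 3.79 for H19 over the course, but neither passed the test between 2 KO and 2 WT libraries. Xist was at -0.03. Cdx2, higher over the course, was lower in diff_XEN (-7.51). Ago2 itself was at 115 CPM in clone C4 and 9.72 CPM in clone 5-3, against 391 and 427 CPM in WT (-2.72, adjusted p = 0.0808).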

How the data were processed

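Polyadenylated RNA was measured by RNA sequencing. The deposited course files hold raw counts per gene symbol, 1 file per library, and the diff_XEN counts came from a deposited series table, in which 3 columns were not used. Per the submitters' processing notes, the authors used STAR 2.5.0c and featureCounts 1.4.5-p1 on mm10; the strand setting is not given in the sources used here. The counts of the 16 course libraries were tested with edgeR 4.0.16 in R 4.3.3 (TMM scaling, filterByExpr on day and genotype, robust quasi-likelihood fit, 11 residual degrees of freedom), with Benjamini-Hochberg adjustment over all genes. A second fit with genotype by day gave the per-day values and the by-day test. diff_XEN was fitted apart. DESeq2 1.42.0 was an alternative, and the steps were tested on simulated data. Within each group the 2 libraries differed beyond counting error, by a chi-square of 12.6 to 47.4 for each degree of freedom in the course and of 45.5 and 103 in diff_XEN, and none were merged.

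The genes named in full were Ago2, 10 lineage genes, the 12 largest rises and 12 largest falls that held with at least 5 CPM in the higher genotype, the 3 steadiest per direction past 2-fold, the 3 largest per direction that did not hold, and the up to 4 members of smallest p per list; predicted names were counted only, and a few genes that these rules choose are not reported here. Further list members and genes of the chromosome 10 stretch were chosen after their values were seen. The comparison and the gene lists were chosen with earlier results of these data known. Annotation was GENCODE vM21 on GRCm38, and sequences were those of RefSeq GRCm38.p6. Of 30590 symbols, 29522 matched directly and 522 through an older symbol. Library size limits the precision of low counts: where KO had 3 reads or fewer on a day, no fold is given for that day.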

Additional observations from a re-analysis of the deposited data

Results flagged for a closer look

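For 22 of the named genes the difference between KO and WT was not the same on the 4 days, by edgeR's quasi-likelihood test of genotype by day with Benjamini-Hochberg adjustment. Values are log2 fold changes of KO over WT on days 1, 2, 3 and 4, and the p given is that of the by-day test.

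Several were endoderm genes whose deficit in KO was larger at day 4 than at day 1. Hnf4a, a liver and visceral endoderm factor, stood at -0.38, -1.02, -3.86 and -5.68 (adjusted p = 2.63e-04), and Amn at -1.47, -3.09, -4.45 and -6.39 (adjusted p = 0.00139). Ihh stood at -0.06 at day 1 and -4.42 at day 4 (adjusted p = 0.0304). The deficit was also larger at day 4 than at day 1 in Gata4 (adjusted p = 0.0243), Klb (adjusted p = 0.0379), Tcf23 (adjusted p = 0.00813), Srgn (adjusted p = 0.00613) and Clic6 (adjusted p = 0.0057). Fgfr4 was at -0.76 at day 1 and -2.89 at day 4 (adjusted p = 0.0204). The trypsin inhibitor gene Spink1 stood at 1.08 at day 1 and -5.47 at day 4 (adjusted p = 0.0057). Dab2 had its smallest difference at day 2, with -2.13, -1.09, -1.36 and -2.53 (adjusted p = 0.0492).

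The lysosomal genes Ctsl (adjusted p = 0.00297), Neu1 (adjusted p = 0.0118) and Ctsz (adjusted p = 0.00497) were near 0 at day 1, at -0.37 for Ctsl, 0.00 for Neu1 and 0.23 for Ctsz, and at -2.42 for Ctsl, -1.32 for Neu1 and -1.70 for Ctsz at day 4. Dnmt3b, a DNA methyltransferase, stood at -0.09, -0.26, -1.17 and -2.58 (adjusted p = 0.0012). L1td1, an RNA-binding protein of stem cells, was at 0.21 at day 1 and -1.92 at day 4 (adjusted p = 0.0326), and the claudin gene Cldn6 at 0.10 and -1.12 on those days (adjusted p = 0.0421).

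Other genes changed sign. Tdpoz4 (adjusted p = 0.00391) and Zfp352 (adjusted p = 0.0492), both expressed in 2-cell embryos, were higher in KO at day 1, at 1.87 for Tdpoz4 and 1.45 for Zfp352, and lower on each later day. Lin28b, a blocker of let-7 maturation, stood at -0.21, 1.31, 1.03 and 1.42 (adjusted p = 0.0252), and Ccnd2, a D-type cyclin, at 1.59, 1.83, -0.09 and 0.19 (adjusted p = 0.0209). Sema3e was higher throughout, at 0.60, 1.65, 2.5 and 1.83 (adjusted p = 0.0265). The by-day count itself moved strongly when single libraries were left out, and no explanation was tested.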

How the results depend on the processing

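The count of 2296 genes called over days 1 to 4 was 83 (11 higher, 72 lower) with an added 2-fold threshold, 902 without day 2 and 1132 without day 4. The other alternatives stayed within 1.5 times, at 1678 without WT day 2 replicate 1 to 2648 without KO day 1 replicate 2 among the single libraries. With the group means averaged, where the spread is that within day and genotype, 3103 genes were called. The 901 genes that held became 2119 without day 1, and 843 to 1193 without 1 library. Fewer days or libraries make the rule for holding easier to meet, so these counts are not like for like. The by-day count of 410 was 2191 with DESeq2's likelihood ratio test, 3420 without an expression filter, and 119 to 2320 without 1 library, at 119, 131 and 150 without WT day 1 replicate 2, KO day 1 replicate 2 and WT day 1 replicate 1, and at 688, 2098 and 2320 without KO day 3 replicate 1, KO day 1 replicate 1 and WT day 3 replicate 1. The diff_XEN count was 4180 to 6952 without 1 library. Leaving out a library raises the number of genes tested, since the smallest group then has 1 library; the cause of the other shifts was not tested. The replicate number as a block gave 2050 calls (1593 as a block within day), 875 genes that held and 301 by-day calls. Same-numbered deviations correlated at -0.0359, 0.0755, -0.0794 and 0.391 on days 1 to 4. Neither these values nor the labels settle whether the numbers pair the samples, and the diff_XEN columns carry no numbers. Without KO day 3 replicate 1 and WT day 3 replicate 2 together, chosen after seeing the data, 2327 genes were called and 1296 held. Among the named genes, 4195 values kept direction and call, 366 lost the call, 108 gained it and 1 turned, Esrrb without day 4 (0.038). Of the 2296 called genes 1361, and of the 901 that held 770, were called without each of the 16 libraries. Low counts limit the precision of genes such as Habp2 and Aqp8, with 17 and 38 reads over the 8 KO libraries.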

Other observations

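Gene groups not described above gave few calls, and many of these moved with single libraries. Over all genes tested 5.75% were higher and 7.23% lower, so lists with 1 or 2 calls are not set apart by their counts. Of 21 lysosome and endocytosis genes, 5 were lower and 0 higher (median -0.20), among them the protease gene Ctsl (-1.50 ± 0.24), which held, and the proton pump gene Atp6v1a (-0.64 ± 0.12). That count was 3 without either KO library of day 4, 10 without day 1, 2 without day 3 or day 4, and 9 with the group means averaged. Of 13 primed and formative epiblast genes, 3 were lower and 3 higher. The 3 lower ones became 0 without WT day 3 replicate 1, KO day 3 replicate 2 or KO day 4 replicate 2 and with the replicate number as a block within day, and 1 without WT day 4 replicate 2, KO day 2 replicate 2 or KO day 4 replicate 1. Of 14 primitive streak and definitive endoderm genes, 3 were higher and 1 lower, and the median was 0.19. Nodal, in the chromosome 10 stretch, was 1 of the 3. Of 12 blood and endothelium genes, 4 were lower and 2 higher, with 1 lower without day 2 or day 4 and 1 higher without WT day 2 replicate 1. Of 23 interferon response genes, 3 were higher and 0 lower (median 0.13), and 1 was higher without WT day 3 replicate 1 or KO day 3 replicate 1. Among them Ifitm3, a membrane protein that restricts virus entry, held (1.11 ± 0.24). Of 20 cell cycle genes, Ccnd1 and the kinase gene Cdk1 (0.50 ± 0.09) were higher and Ccnb1 (-0.31 ± 0.08) lower. Cdk1 lies in the chromosome 10 stretch, whose median was 0.56. Of 18 p53 targets, 3 were higher and 1 lower, and 0 were higher without day 2 or day 4. Of 20 epithelial junction genes 3 were higher, 1 to 5 without 1 library, and 2 were lower, 0 to 3 without 1 library. In that list the desmosome gene Pkp2 (0.67 ± 0.15) held. Of 12 DNA methylation genes 1 was lower, and 0 without WT day 3 replicate 1, KO day 3 replicate 2 or KO day 4 replicate 2. Of 13 genes of 2-cell-like cells 1 was lower, and 6 without day 1.

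Of 7 Y-linked genes tested, 1 was higher and 1 lower with all libraries. Without WT day 3 replicate 2, in which Ddx3y, Eif2s3y and Uty were at 10.1, 10.9 and 8.06 CPM, 3 were higher and 1 lower, and Ddx3y (0.52, adjusted p = 0.00357) and Eif2s3y (0.31, adjusted p = 0.00865) passed the test.

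In diff_XEN, the median gene of chromosome 1 lay at -0.62 in KO clone C4 and -0.59 in KO clone 5-3 against the WT libraries, and that of chromosome 15 at 0.46 in clone C4 and 0.63 in clone 5-3. Both clones were set against the same 2 WT libraries, so a shift in the KO and one in the WT libraries cannot be told apart. Over the course the median gene of chromosome 1 was at -0.04 and that of chromosome 15 at -0.10. WT day 3 replicate 2 of the course lay the other way from the clones, at 0.53 on chromosome 1 and -0.54 on chromosome 15. DNA copy number was not measured.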
